A study of Saccharomyces cerevisiae with 3 samples.

Results

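The regions described here are the H3K4me2 and H3K4me3 peaks at the tips of the chromosomes of budding yeast (Saccharomyces cerevisiae). A peak was included when its summit lay within 50 kb of base 1 or of the end of the last annotated gene of its chromosome. This rule took 552 of the 6712 deposited peaks, namely 270 of 2998 H3K4me2 peaks (9.01%, exact 95% interval 8.0 to 10.1) and 282 of 3714 H3K4me3 peaks (7.59%, 6.76 to 8.49). They lie on the 32 ends of the 16 nuclear chromosomes. The end zones make up 13.3% of the annotated span, so they held fewer peaks than their length would give. The 3 samples are 1 H3K4me2 library, 1 H3K4me3 library and 1 input without antibody, of which no peak list was analysed here. All came from strain BY4741 in mid-log phase in YEPD, a rich glucose medium. Cells were fixed with formaldehyde, and chromatin from nuclei was cut with micrococcal nuclease, which cuts between nucleosomes, before pull-down with an antibody against either mark. BY4741 is a haploid laboratory strain of mating type a that lacks all or part of HIS3, LEU2, URA3 and MET17. No peak of either mark lay over LEU2, URA3 or MET17, and an H3K4me3 peak covered 80.4% of the first 500 bp of HIS3, of which the strain keeps a part. With 1 library per mark no difference has a replicate check, so no test was run, and intervals cover counting error only. The depth of the libraries is unknown, because the lists give tags inside peaks alone, 1492318 for H3K4me2 and 1644589 for H3K4me3.

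Histone H3 is methylated at lysine 4 by COMPASS, an enzyme complex that travels with RNA polymerase II, and the trimethylated form is found at the beginning of transcribed genes with the dimethylated form further along them. Yeast chromosome ends are a textbook case of silencing: the Sir2, Sir3 and Sir4 proteins spread inward from the telomere repeats, remove acetyl groups from histones and keep nearby genes off. The same proteins silence the spare mating-type genes HML and HMR on chromosome III. Much of the sequence between telomere and the first housekeeping gene consists of gene families with near-identical copies on many ends, for sugars, vitamins, metals and cell wall proteins that are used under special conditions.

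Bases under a peak were scarcer near the ends than elsewhere for both marks. H3K4me2 peaks covered 18.3% of the end zones and 29.3% of the rest of the chromosomes, and H3K4me3 peaks covered 18.1% and 34.1%. The share in the rest was therefore 1.6 times that at the ends for H3K4me2 and 1.89 times for H3K4me3. For each mark, 30 of the 32 ends had a lower coverage than the remainder of their own chromosome. The exceptions for H3K4me2 were both ends of chromosome XIII, with 33.9% on the right and 33.4% on the left. For H3K4me3 they were the left end of XIII with 37.2% and the right end of VI with 37.0%. The lowest values were 6.11% for H3K4me2 on the left end of VI and 3.88% for H3K4me3 on the right end of I. The number of H3K4me2 peaks per end ran from 4 to 16, with a median of 7.5, and that of H3K4me3 peaks from 2 to 17, with a median of 9. Ends thus differed widely among themselves, and the counts of both marks did not always go together. The right end of XIV held 11 H3K4me2 and 5 H3K4me3 peaks. The right end of XII held 4 H3K4me2 peaks, the lowest number, and 9 H3K4me3 peaks, the median.

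Both marks were nearly absent from the outermost 15 kb. In the first 5 kb from the end, summed over 32 ends, there were 2 H3K4me2 peaks and 1 H3K4me3 peak, and they and their neighbours covered 1.09% and 0.564% of the bases. Between 5 and 10 kb there were 9 H3K4me2 and 6 H3K4me3 peaks, with 5.56% and 3.95% of bases covered. Between 10 and 15 kb the counts were 7 and 11, with 4.04% and 5.04% covered. No base of the outermost 15 kb lay under H3K4me2 on 20 of the 32 ends, and none under H3K4me3 on 19. Coverage over this stretch was 12.1% of the value more than 50 kb from the ends for H3K4me2 and 9.33% for H3K4me3.

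From 15 to 35 kb H3K4me2 covered more bases than H3K4me3. H3K4me2 peaks numbered 27 between 15 and 20 kb and 38 between 20 and 25 kb, where they covered 17.6% and 26.1% of the bases. H3K4me3 peaks numbered 16 and 33 in these steps and covered 11.6% and 20.7%. From 15 to 35 kb H3K4me2 covered 22.2% of the bases, which is 75.6% of its level in the rest of the chromosomes, while H3K4me3 covered 18.1%, which is 52.9% of its own. H3K4me2 coverage was above that of H3K4me3 in each of the 4 steps from 15 to 35 kb, and on 15, 18, 16 and 15 of the 32 ends in turn, against 6, 7, 11 and 10 ends with more H3K4me3. More than 50 kb from the ends the order was the other way round. Between 35 and 50 kb both marks were close to their level elsewhere, with 27.8% of bases under H3K4me2 (94.9% of the level in the rest) and 33.0% under H3K4me3 (96.7%). The numbers of peaks in the 3 steps of this stretch were 43, 37 and 41 for H3K4me2 and 55, 49 and 51 for H3K4me3. Between 25 and 35 kb they were 36 and 30 for H3K4me2 and 30 and 30 for H3K4me3.

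**Figure D1:**
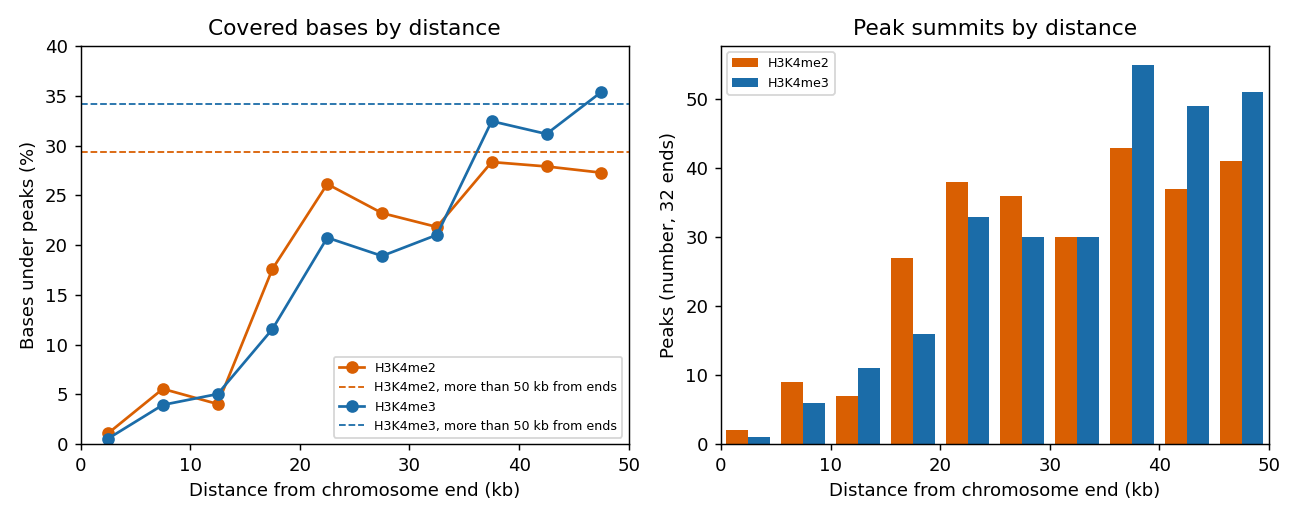
Left, percent of bases under peaks in 5 kb steps from the chromosome end, averaged over 32 ends, with dashed lines at the value more than 50 kb from the ends; right, number of peak summits in each step. Both marks stay below 6% in the outermost 15 kb, H3K4me2 lies above H3K4me3 from 15 to 35 kb, and H3K4me3 lies above from 35 kb on.

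Gene starts were also fewest in the outermost 5 kb, but to a smaller degree, and their number did not rise steadily inward. Summed over 32 ends there were 47 protein-coding gene starts from 0 to 5 kb, 68 from 5 to 10 kb and 73 from 10 to 15 kb, against 85 from 45 to 50 kb. The steps between held from 52 (15 to 20 kb) to 89 (40 to 45 kb). Members of gene families with similar copies on several ends (the multicopy lists described below) made up 61 of the 188 genes of the outermost 15 kb (32.4%) and 5 of 247 between 35 and 50 kb (2.02%). No source used here says how reads with several matches were handled, and its part in the low coverage was not tested. Among the 127 genes of the outermost 15 kb that are not on these lists, 11 (8.66%) carried H3K4me2 and 13 (10.2%) carried H3K4me3 by the rule used for gene starts below. Copies were not searched for by sequence, so these 127 genes are not known to be free of repeats. The share of 32.4% may likewise be too low.

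The 11 H3K4me2 and 7 H3K4me3 peaks within 10 kb of an end are the outermost marks, and they sat on few genes. On the right end of chromosome XIV an H3K4me2 peak (779857 to 780785, sacCer3) with 360 tags at 2.55-fold had its summit 3.47 kb from the end, inside COS10, a member of the COS membrane protein family. This was the summit nearest to any end for that mark. The neighbouring AIF1, which encodes a mitochondrial protein related to apoptosis-inducing factor, carried both marks, with 386 H3K4me2 tags at 2.5-fold and 248 H3K4me3 tags at 2.68-fold. Its H3K4me3 summit, 4.86 kb from the end, was the nearest for H3K4me3. Fold values are the authors' own and depend on each library, so they are not set against each other between marks.

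Both marks also lay over IRC7, a gene for a beta-lyase of sulfur compounds on the right end of VI (264204 to 265226), with 378 H3K4me2 tags and 323 H3K4me3 tags. BDS1 on the left end of XV, which encodes a sulfatase, had 2 H3K4me2 peaks with 407 and 493 tags and 1 wide H3K4me3 peak of 1804 bp with 680 tags. ADH7 on the right end of III, a gene for an alcohol dehydrogenase, had 344 H3K4me2 tags at 2.19-fold and 275 H3K4me3 tags at 2.34-fold. FET4 on the right end of XIII, the gene of a low-affinity iron transporter, held the densest of these peaks, an H3K4me2 peak of 1884 bp with 969 tags and an H3K4me3 peak of 1395 bp with 646 tags. All 5 of these genes were at or beyond 4.80 kb from the end, and each had both marks over its start.

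The remaining peaks within 10 kb lay on genes of maltose use and arsenic resistance, on COS6 and on YKL222C, a gene without a standard name. MAL31, a maltose permease gene on the right end of II (802631 to 804475), had H3K4me2 alone, with 466 tags at 2.98-fold. The arsenic genes at the right end of XVI are a cluster of the activator gene ARR1, the arsenate reductase gene ARR2 and the arsenite exporter gene ARR3. ARR1 had both marks (280 H3K4me2 and 343 H3K4me3 tags), ARR3 had H3K4me2 alone with 212 tags, and ARR2 had no marked start. An H3K4me2 peak with 230 tags lay in COS6 on the right end of VII and covered 42% of its first 500 bp, short of the limit for a marked start. YKL222C on the left end of XI had H3K4me3 alone, with 248 tags at 2.65-fold. Among these peaks the authors' score was lowest at COS6 (53.29), ARR3 (64.47) and ARR1 (66.18) for H3K4me2 and at ADH7 (79.3) and AIF1 (79.75) for H3K4me3. The H3K4me2 peak of FET4 had the highest score of its list within 10 kb, 503.51.

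Starts count as marked here if 50% or more of the first 500 bp of the gene, or of all of a shorter gene, lay under peaks. The outermost marked gene began at a median of 17.3 kb from the end for H3K4me2 (quartiles 14.3 and 23.4 kb, range 3.63 to 40.3 kb, 32 ends) and 19.0 kb for H3K4me3 (quartiles 13.6 and 27.0 kb, range 4.80 to 44.5 kb). Outside it lay a median of 6 unmarked protein-coding genes for each mark, with a range of 1 to 15 for H3K4me2 and 1 to 16 for H3K4me3. For H3K4me2 it was within 10 kb on 7 ends, between 10 and 20 kb on 12, between 20 and 30 kb on 8 and farther in on 5. For H3K4me3 these numbers were 7, 10, 7 and 8.

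On 11 of 32 ends the same gene was the outermost for both marks. Besides IRC7, BDS1, ADH7 and FET4, these were CHA1 on the left end of III (16.9 kb), which encodes a serine and threonine deaminase, and the S-adenosylmethionine permease gene SAM3 on the left of XVI (22.9 kb). REE1 on the left of X (23.1 kb), SKG1 on the right of XI (23.3 kb), the glutamate dehydrogenase gene GDH3 on the left of I (31.6 kb), the oxysterol-binding protein gene SWH1 on the right of I (34.2 kb) and the nitrilase gene NIT1 on the left of IX (34.7 kb) completed them. On chromosome I both ends were thus free of marked starts for more than 30 kb, a stretch that holds the flocculin genes FLO9 on the left and FLO1 on the right. An H3K4me2 peak without a gene start did lie on the right end of I, with 461 tags, 27.9 kb from the end at position -4419 bp relative to the FLO1 start codon.

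H3K4me2 marked a gene farther out than H3K4me3 did on 13 ends, by more than 5 kb on 7 of them. The widest gap, 20040 bp, was on the right end of X, between YJR154W (H3K4me2, 18.2 kb) and BAT2 (H3K4me3, 38.3 kb), the gene of a cytosolic branched-chain aminotransferase. On the left end of VI the amino acid permease gene AGP3 (17.0 kb) carried H3K4me2 and the first H3K4me3 start was SWP82 (36.8 kb), a subunit of the SWI/SNF remodeller. The other large gaps were MAL31 against the cadmium transporter gene PCA1 on the right of II (7.0 and 18.6 kb), the alpha-glucoside permease gene MAL11 against the biotin synthase gene BIO2 on the right of VII (14.8 and 25.7 kb), PAD1 against the kinetochore gene KRE28 on the right of IV (20.8 and 31.2 kb), FRE5 against the regulator gene RDR1 on the right of XV (29.3 and 39.6 kb), and ECM34 against the siderophore transporter gene ARN1 on the left of VIII (14.9 and 21.0 kb). The other 6 ends had gaps of 343 to 4205 bp. They were MHT1 and MMP1 (XII left, enzyme and permease of S-methylmethionine use), ARR3 and ARR1 (XVI right), COS10 and AIF1 (XIV right), the glutathione transferase gene GTT1 and the peroxidase gene HYR1 (IX right), YDL242W and LRG1 (IV left), and YHR210C and BAT1 (VIII right), H3K4me2 first in each pair.

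H3K4me3 marked a gene farther out on 8 ends, by more than 5 kb on 4. The widest gaps were 15968 bp on the right end of XII, where the GPI transamidase gene GAB1 (20.6 kb) carried H3K4me3 and the pheromone response regulator gene SST2 (36.5 kb) was the first with H3K4me2, and 15808 bp on the right of V, between YER186C (13.9 kb) and the pyruvate dehydrogenase gene PDA1 (29.7 kb). They were followed by YKL222C against COS9 on the left of XI (5.62 and 14.5 kb) and the protein kinase C gene PKC1 against the transcription factor gene RTG3 on the left of II (17.7 and 23.5 kb). The other 4 were the endoplasmic reticulum oxidase gene ERO1 against MSC1 (XIII left), the histone deacetylase gene RPD3 against the peroxisome gene PEX6 (XIV left), RMD6 against DLD3 (V left) and the mannosyltransferase gene MNT2 against ADH4 (VII left), with gaps of 1002 to 3502 bp. So neither mark was the outer one on every end, and the median difference over 32 ends was 0 bp. These gaps depend on the rule for marked starts. By outermost peak summit, H3K4me2 lay nearer the end on 20 ends and H3K4me3 on 12. On the right of XII those summits lay at 23450 (H3K4me2) and 20214 bp, and on the left of VI at 15993 and 15967 bp. On the left of XIII (12574 and 12870 bp) and of XIV (18639 and 19268 bp) the H3K4me2 summit was the outer one.

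The end with the nearest marked start and that with the farthest show the range. On the right of XIV, the gene outside COS10 was YNR075C-A, without either mark, and the genes inward were AIF1 with both and MAN2 with neither over its start. On the right of VIII, 14 unmarked genes lay outside YHR210C, the innermost of them the flocculin gene FLO5, and CRG1, the gene between YHR210C and the mitochondrial branched-chain aminotransferase gene BAT1, had no H3K4me3 start. BAT1 (44.5 kb) held 738 H3K4me3 tags at 3.19-fold, and SET5, a histone methyltransferase gene, followed it inward.

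**Figure D2:**
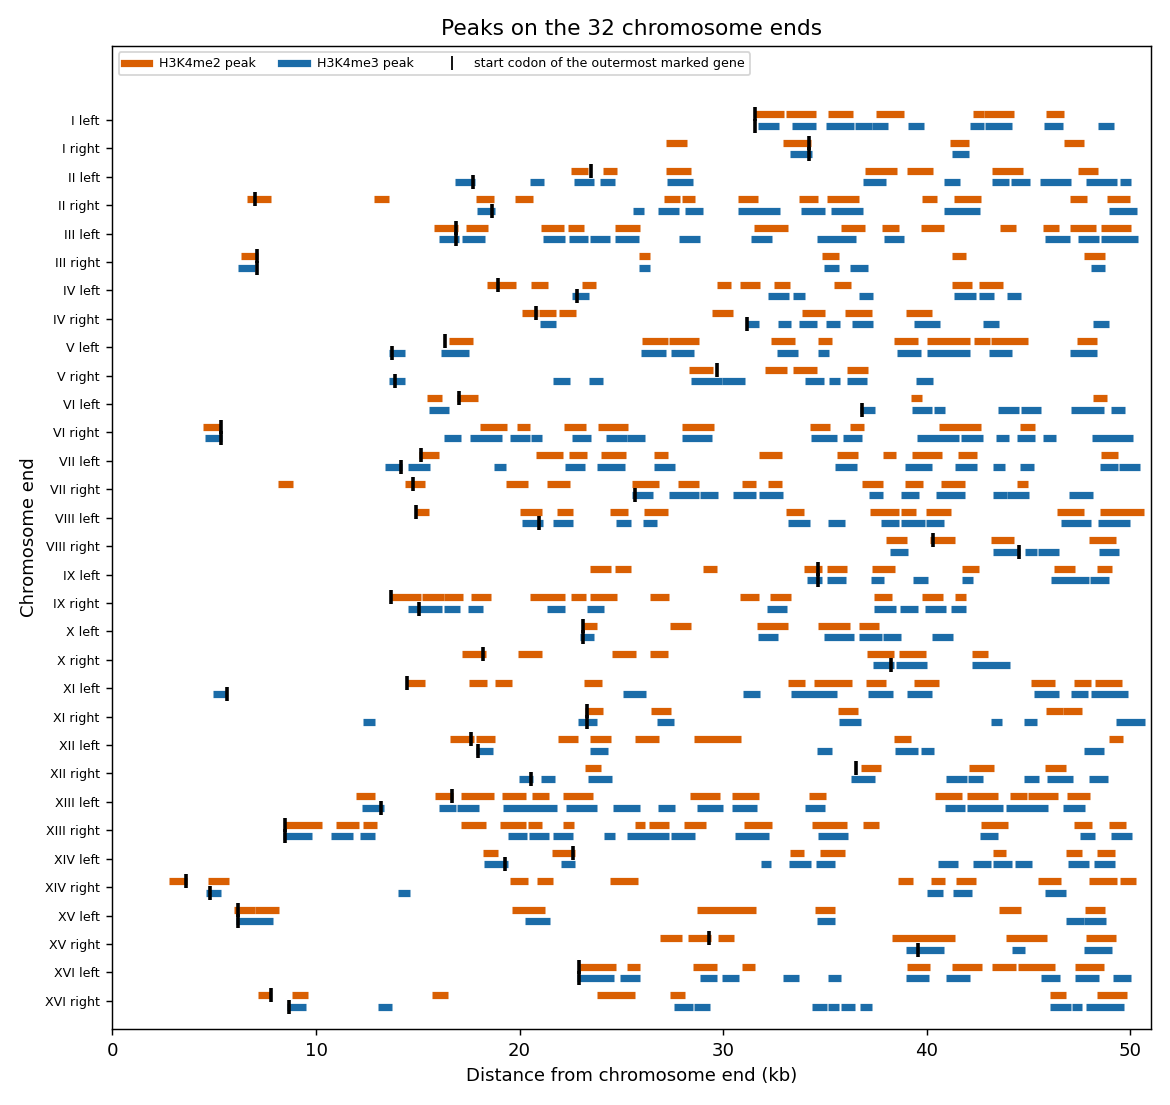
Each row is 1 of the 32 chromosome ends, with the end at 0 on the left and distance in kb on the x axis; bars are H3K4me2 (upper) and H3K4me3 (lower) peaks at their true extent and black ticks are the start codons of the outermost marked genes. The ticks run from 3.63 kb on the right end of XIV to 44.5 kb on the right end of VIII.

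The 7 ends with an annotated YRF1 gene, the helicase of the repeated Y' element that caps some chromosomes, had their outermost marked gene at a median of 22.9 kb for both marks. On the other 25 ends the medians were 16.7 kb for H3K4me2 and 17.7 kb for H3K4me3. The ranges overlap widely (14.8 to 36.5 kb against 3.63 to 40.3 kb for H3K4me2), and none of the 7 ends had a marked start within 10 kb. Ends were sorted by the annotated gene name YRF1 alone. The other 25 ends are therefore not known to lack the Y' element, and its presence was not compared.

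Counted by gene starts instead of bases, both marks were again scarcer near the ends, but from 15 to 35 kb H3K4me3 starts slightly outnumbered H3K4me2 starts, the reverse of the order by covered bases. Over all 6002 nuclear protein-coding genes 43.5% carried H3K4me2 and 64.6% carried H3K4me3. Among the 697 that start within 50 kb of an end, 222 carried H3K4me2 (31.9%, exact 95% interval 28.4 to 35.5) and 284 carried H3K4me3 (40.7%, 37.1 to 44.5). Among the 5305 others the shares were 45.1% and 67.8%, outside these intervals. In the outermost 15 kb, 15 of 188 genes carried H3K4me2 (7.98%, 4.53 to 12.8) and 13 carried H3K4me3 (6.91%, 3.73 to 11.5). Between 15 and 35 kb 106 of 262 genes (40.5%, 34.5 to 46.7) had H3K4me2, an interval that includes the share elsewhere. H3K4me3 lay over 116 of these 262 starts (44.3%, 38.2 to 50.5), below its share elsewhere. Between 35 and 50 kb it lay over 155 of 247 (62.8%, 56.4 to 68.8), again with the outside share inside the interval.

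The mix of marks differed too. Near the ends 357 genes had neither mark (51.2%, exact 95% interval 47.4 to 55.0), against 27.5% of the genes elsewhere and 30.3% of all genes. H3K4me2 alone was found at 56 end genes (8.03%, 6.13 to 10.3), against 4.71% elsewhere and 5.10% of all genes, and at 8 of the 52 genes between 15 and 20 kb. H3K4me3 alone was found at 118 (16.9%, 14.2 to 19.9), against 27.4% elsewhere. Both marks were found at 166 (23.8%), against 40.4% elsewhere. Among the 15 genes with H3K4me2 in the outermost 15 kb, 8 had H3K4me2 alone and 7 both marks.

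**Figure D3:**
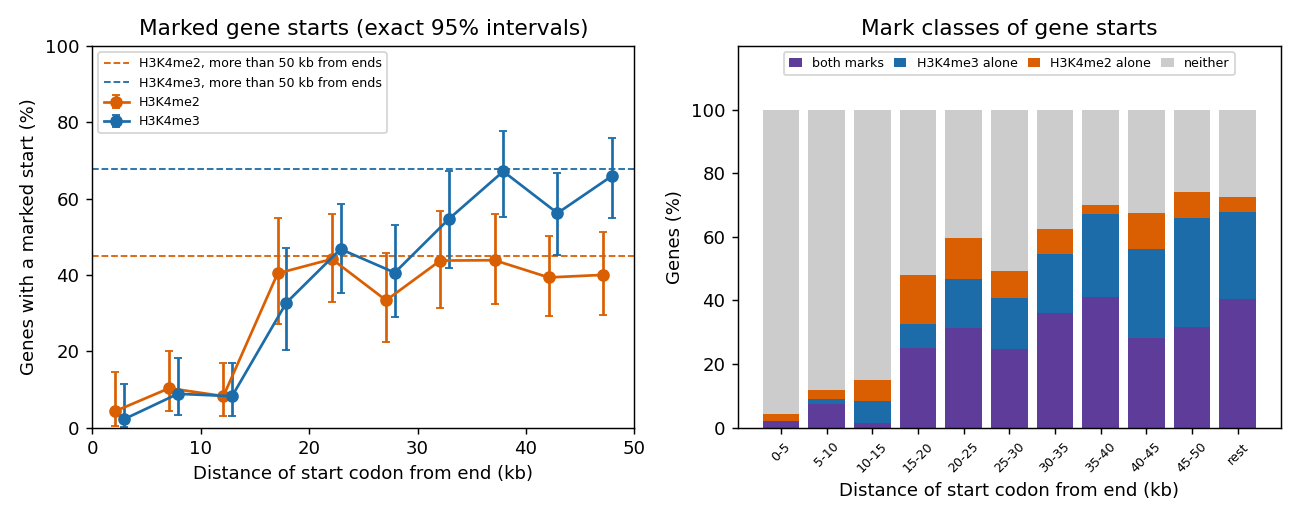
Left, percent of protein-coding genes with at least 50% of the first 500 bp under a peak, by distance of the start codon from the end in kb, with exact 95% intervals and dashed lines at the value more than 50 kb away; right, the same genes as stacked shares of both marks, H3K4me3 alone, H3K4me2 alone and neither. H3K4me2 stands at 40.4% from 15 to 20 kb and H3K4me3 at 67.1% from 35 to 40 kb, against outside shares of 45.1% and 67.8%.

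Genes transcribed away from the chromosome end had higher marked shares than those transcribed toward it in each comparison. The intervals overlapped each time, which does not show that the shares are equal, and the difference was not tested. Over the whole 50 kb, H3K4me3 marked 35.9% (31.0 to 41.0) of genes pointing to the end and 46.1% (40.6 to 51.6) of those pointing inward. From 15 to 50 kb, 125 of 261 genes that point to the end carried H3K4me3 (47.9%, exact 95% interval 41.7 to 54.1), and 146 of 248 that point inward (58.9%, 52.5 to 65.1). For H3K4me2 the shares were 38.7% and 42.7%. In the outermost 15 kb, 104 genes pointed to the end and 84 inward. H3K4me2 marked 4 of the first (3.85%, 1.06 to 9.56) and 11 of the second (13.1%, 6.72 to 22.2), and H3K4me3 marked 6 (5.77%) and 7 (8.33%).

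The gene families typical of chromosome ends were almost without H3K4me3, and several carried H3K4me2 alone. Of 115 members of 16 families and pathways that lie within 50 kb, 20 had H3K4me2 at the start (17.4%), 7 had H3K4me3 (6.09%) and 94 had neither. The shares were 43.5% and 64.6% of all genes, 31.9% and 40.7% of genes within 50 kb, and 7.98% and 6.91% in the outermost 15 kb. Several families lie mostly in that outermost stretch, such as the COS genes (median 6400 bp) and the PAU and DAN genes (8444 bp). Family and position were not told apart. The lists were made with earlier results of these data known, so they give no independent evidence.

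Families without a marked member were the silent mating-type genes (0 of 4), the YRF1 helicases (0 of 8), the PAU and DAN cell wall mannoproteins (0 of 22, which allows a share of up to 13.6%), the flocculins (0 of 5), the hexose transporters (0 of 8), the aryl-alcohol dehydrogenases (0 of 5), the extra copies of thiamine and vitamin B6 genes (0 of 8), the enolase-related genes (0 of 3) and IMD2 (0 of 1), the IMP dehydrogenase near an end. By the same limit, 0 of 8 allows up to 37.5%, 0 of 5 up to 60% and 0 of 4 up to 75%. These limits lie above the 31.9% of all genes within 50 kb that had H3K4me2. Among these families, an H3K4me2 peak of 401 tags lay over 60.9% of HXT8 but 1% of its start window. Another of 508 tags, with its summit in the neighbouring YDL242W, reached over 37.4% of the start window of AAD4. Of the 8 hexose transporter genes farther than 50 kb from an end, 3 carried H3K4me2 and 2 carried H3K4me3. COS9 and COS10 were the marked members of 11 COS genes, both with H3K4me2 alone, at 301 and 360 tags.

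Sugar genes with a mark mostly had H3K4me2 alone. Of 14 genes of maltose, isomaltose and sucrose use, 5 had H3K4me2. MAL31 had 466 tags, MAL11 on the right of VII (1073963 to 1075813) had 334 and its neighbours there, the MAL activator gene MAL13 and the isomaltase gene IMA1, had 475 and 447. The score of the MAL11 peak was low at 58.87. SUC2, the invertase gene on the left of IX, was the only member with both marks, with 549 H3K4me2 tags and 238 H3K4me3 tags. The MAL genes and SUC2 are known to be repressed by glucose, the sugar of this medium.

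Some iron and allantoin genes had both marks and others H3K4me2 alone. Of 11 genes of siderophore and iron uptake 5 had H3K4me2 and 3 of these had H3K4me3 as well. Those with both were the siderophore transporter genes ARN1 (473 and 357 tags, H3K4me2 first), ENB1 (752 and 531) and SIT1 (756 and 509). Another siderophore transporter gene, ARN2 (10.2 kb), had no base of its start window under either mark, while the ferric reductase gene FRE5 (454 tags) and the cell wall protein gene FIT3 (347 tags) had H3K4me2 alone. In the DAL cluster on the right of IX, 3 of 6 genes had H3K4me2 (50%, 11.8 to 88.2). The enzymes of this cluster break down allantoin as a nitrogen source. DAL2 (339 tags) and DAL3 (285 tags) had H3K4me2 alone and DAL7 had both (576 and 328 tags). BIO3 and BIO4, biotin synthesis genes on the right of XIV, both had H3K4me2 alone, with 555 and 294 tags. The lists leave out BIO2 and FET4, described above, which had both marks. The phosphate transporter genes differed: PHO89 on the right of II had H3K4me2 alone (290 tags) and PHO84 on the left of XIII had H3K4me3 alone (617 tags), while PHO11 and PHO12, acid phosphatase genes, had neither.

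**Figure D4:**
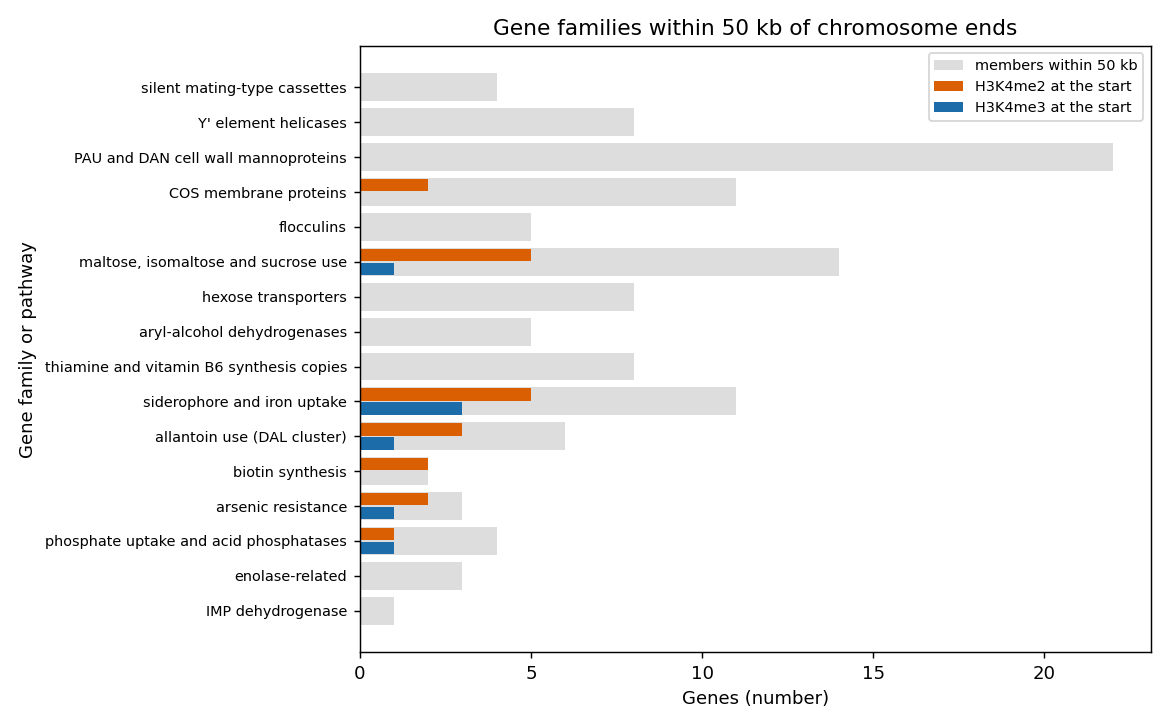
Number of genes within 50 kb of an end in each family or pathway (grey), and how many of them carry H3K4me2 or H3K4me3 over the start (coloured bars). H3K4me2 was found in 20 of 115 members and H3K4me3 in 7.

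The silent mating-type genes lay in peak-free stretches. HMLALPHA1 and HMLALPHA2 on the left of III (12386 to 13809) had no peak of either mark over any base, nor did any base between them and the end. The first peaks inward began 2012 bp (H3K4me2) and 2238 bp (H3K4me3) beyond HMLALPHA1, at CHA1, the outermost marked gene of that end. HMRA1 and HMRA2 on the right of III (293179 to 294321) lay in a gap of 18703 bp between H3K4me2 peaks and 18888 bp between H3K4me3 peaks, bounded outward by the peaks of ADH7 and inward by short peaks beside YCR095W-A of 199 and 182 tags. HMR and HML are near-identical in part to the active MAT locus, so reads there may match more than 1 place. Peak-free gaps of this kind did not always touch the end: the longest one within 50 kb started at the end itself on 26 of 32 ends for H3K4me2 and on 25 for H3K4me3.

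Where peaks were present near the ends, they were close to other peaks in width and tag content. The median width of end peaks was 1017 bp for H3K4me2 (quartiles 828 and 1244 bp), against 1052 bp for the other peaks of that list, and 974 bp for H3K4me3 (789 and 1160 bp), against 972 bp. The median peak held 431 H3K4me2 tags, against 454, or 380 H3K4me3 tags, against 393. Tags per kb of peak were 425 against 426 for H3K4me2 and 400 against 406 for H3K4me3. The authors' fold had a median of 2.63 against 2.64 in the H3K4me2 list and 3.0 against 3.10 in the H3K4me3 list.

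Peaks of the outermost 15 kb were on the small side. The 18 H3K4me2 peaks there had a median width of 932 bp, 364 tags and 2.48-fold. The 18 H3K4me3 peaks had a median width of 835.5 bp, 285.5 tags and 2.65-fold. By step, the H3K4me2 medians ran from 334 tags (10 to 15 kb) to 501 tags (40 to 45 kb), and the H3K4me3 medians from 248 tags (the 1 peak of the first 5 kb) to 453 tags (45 to 50 kb). The first 3 steps hold 1 to 11 peaks each, so their medians rest on few values.

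**Figure D5:**
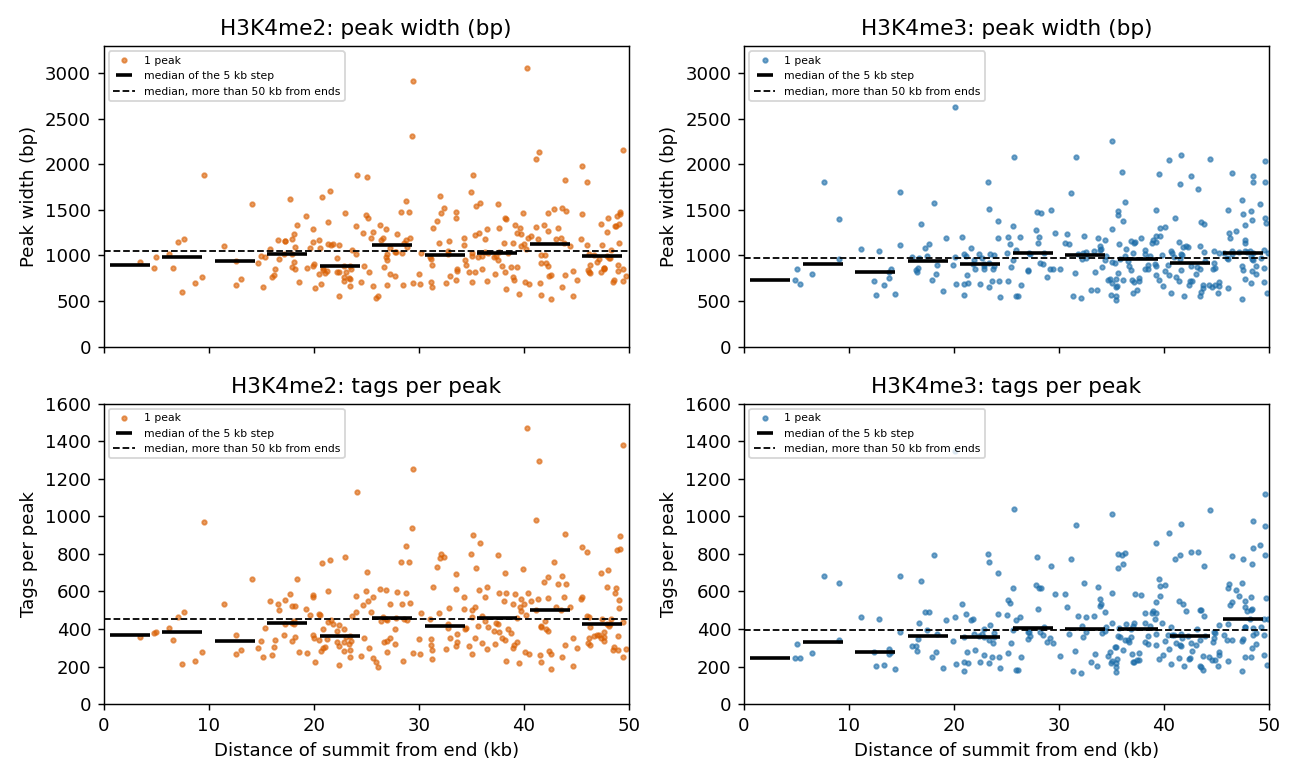
Width in bp (top) and number of tags (bottom) of each peak by distance of its summit from the end in kb, H3K4me2 on the left and H3K4me3 on the right; short black lines are medians of 5 kb steps and dashed lines the median of peaks more than 50 kb from ends. Step medians of H3K4me3 tags lie between 248 and 453, near the dashed line at 393 from 15 kb inward.

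The 5 end peaks with most H3K4me2 tags lay 24.1 to 49.5 kb from the tips. The first was a 3061 bp peak with 1472 tags over the ammonium transporter gene AMF1 and RDR1 on the right of XV, at 40.3 kb, which ranked 5 in the whole list. WSC4 on the left of VIII (1378 tags, 3.36-fold), the vacuolar protease gene PRB1 on the left of V (1293 tags), the cell wall mannoprotein gene HPF1 on the left of XV (1250 tags, without H3K4me3) and SAM3 (1127 tags, 24.1 kb) followed. By fold the first was a peak over ADH2 on the right of XIII (3.58-fold, 438 tags, 49.5 kb), the glucose-repressed alcohol dehydrogenase, 48.2% of whose start window was covered. It was followed by WSC4, the TFIID subunit gene TAF8 on the left of XIII (3.31-fold), CHA1 (3.31-fold, 16.6 kb) and UPA1 on the right of VII (3.29-fold), of which CHA1 was the outermost.

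The end peak with most H3K4me3 tags lay 20.1 kb from the left end of XIII, over ERG13, the HMG-CoA synthase gene of sterol synthesis, and PGA3, with 1347 tags at 3.54-fold in 2626 bp. The next were PDI1 on the left of III (1120 tags), which encodes protein disulfide isomerase, UPA2 and GLC8 on the right of XIII (1039 tags, 25.8 kb), DAT1 and CTK3 on the left of XIII (1033 tags) and DOA1 and SAC1 on the left of XI (1014 tags). By fold the order was DAT1 and CTK3 (4.34-fold), the nucleolar protein gene SRP40 on the right of XI (4.31-fold, 949 tags), the ubiquitin ligase adaptor gene BUL2 on the left of XIII (4.21-fold), the coatomer gene RET2 on the right of VI (4.12-fold, 18.1 kb) and TAF8 (4.02-fold). Chromosome XIII thus gave 5 of these 9 peaks. In the whole H3K4me3 list, end peaks were found in the top 10% of the list by fold at 9.57% of end peaks (exact 95% interval 6.4 to 13.6), against 10.1% of the others. For H3K4me2 these values were 9.26% and 10.2%. By tags the top 10% held 7.41% of H3K4me2 end peaks (4.58 to 11.2), against 10.3% of the others, and by width 6.67% (4.0 to 10.3), against 10.4%, just outside the interval. For H3K4me3 the shares were 11.7% against 9.88% by tags and 11% against 9.94% by width.

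H3K4me2 peaks near the ends overlapped H3K4me3 less than those elsewhere. Of the 270 end peaks 199 shared at least 1 bp with an H3K4me3 peak (73.7%, exact 95% interval 68.0 to 78.9), against 88.9% of the peaks elsewhere and 87.6% of the list. The share was 61.1% (11 of 18) in the outermost 15 kb, 65.6% (86 of 131) from 15 to 35 kb and 84.3% (102 of 121) from 35 to 50 kb. Of the H3K4me3 end peaks 197 of 282 overlapped an H3K4me2 peak (69.9%, 64.1 to 75.2), with 69.8% both elsewhere and in the list. The 71 end H3K4me2 peaks without H3K4me3 had a median of 360 tags in 929 bp, and those with it 453 tags in 1031 bp. Their summits lay a median of 300 bp after the nearest start codon, against 540 bp for those with H3K4me3, and 40 of the 71 (56.3%) covered a start codon, against 44.2%. H3K4me2 peaks elsewhere differed in the same direction. Without H3K4me3 they had a median of 364 tags in 926 bp and of 385.5 bp after the start codon, and 47.0% covered a start codon. With H3K4me3 the values were 469 tags in 1074.5 bp, 547.5 bp and 37.3%.

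Summits outside protein-coding genes were more frequent near the ends. For H3K4me2, 253 of 270 end summits lay in such a gene (93.7%, exact 95% interval 90.1 to 96.3), against 99% elsewhere and 98.5% of the list. For H3K4me3 the count was 266 of 282 (94.3%, 90.9 to 96.7), against 98.2% elsewhere and 97.9% of the list. Of the 17 H3K4me2 and 16 H3K4me3 summits outside them, 15 of each lay over no annotated feature. A pair of overlapping peaks on the right of IX had their summits inside the noncoding RNA genes ICR1 (393884 to 397082) and PWR1 (395999 to 396939). These genes lie upstream of FLO11, whose transcription is known to be governed by their RNAs. The H3K4me2 peak ran from 396238 to 396798 with 226 tags and the H3K4me3 peak from 396249 to 396967 with 245 tags, while FLO11 itself (389572 to 393675) had neither mark over its start. On the left of IX an H3K4me2 peak with 273 tags lay in the pseudogene SDL1. These features were singled out after their values were seen.

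The limit of 50 kb cuts through ordinary chromosome arms. The last H3K4me2 peak inside it was that of BIO4 (49758 bp from the right end of XIV, 773 bp wide, 294 tags), and the first outside was at SRP40 (50314 bp, 1267 bp wide, 763 tags). For H3K4me3 they were at the nuclear export gene CSE1 (49896 bp, 453 tags) and at LOS1 (50084 bp, 344 tags).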

How the data were processed

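Chromatin immunoprecipitation with sequencing gave 1 H3K4me2 and 1 H3K4me3 library. The submitters' processing notes name the build sacCer3, the peak caller MACS 1.4.2 and CASAVA 1.8.2. Settings, aligner, control and the treatment of reads with several matches are not stated in any source used here. The authors deposited, for each library on its own, a list of peaks with a whole-number count of tags, a fold enrichment (a ratio whose background is not named) and a score. The score column is headed as a p-value, but the deposited values all exceed 50, so it was read as -10 times log10 p.

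Genes came from a RefSeq table of assembly R64, the assembly that sacCer3 names, with strand from the systematic name. Gene starts are start codons. Distances run from base 1 or from the last annotated gene end, since the table has no chromosome lengths. First genes start 53 to 2790 bp from base 1. Coverage, counts and exact (Clopper-Pearson) 95% intervals were computed in Python 3.11.15 (scipy 1.17.1, pandas 2.3.3, numpy 2.4.6), and figures drawn with matplotlib 3.10.9. For counts of 0, the upper limit printed corresponds to 3 counts. The functions were tested on simulated peaks.

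Members, gene lists and tests were chosen with earlier results of these data known. The blocks of 15 and 35 kb were chosen after the profile was seen. Named are the outermost marked gene of each end, all marked genes within 10 kb, the neighbours of the nearest and farthest outermost genes, the 5 peaks per mark with most tags and with highest fold, list members with a mark and the silent mating-type genes. Of 135 listed genes 130 were found. Alternatives were stricter or equal-sized peak lists, peaks of 500 bp, other ends, zones, start rules and overlaps.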

Additional observations from a re-analysis of the deposited data

How the results depend on the processing

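Of 148 values recomputed under 12 alternative settings, 114 stayed within the exact 95% interval of the main value or, where it has none, within 1.5 times of it, and 34 did not. Some of the 114 could not move. Equal-sized lists kept every H3K4me2 peak, so for that mark only the overlap could change. Peaks of 500 bp kept their summits, so the end shares of the lists were fixed. No paired analysis was possible because each mark has 1 library. The share of marked genes was lower near the ends than elsewhere under all 10 settings tried for each mark. For H3K4me2 the difference was narrow when the start codon itself had to be covered (19.4% against 20.4%). Equal-sized lists repeated the main H3K4me2 values (31.9% against 45.1%), so for that mark this setting is no separate check. H3K4me2 peaks overlapped H3K4me3 less near the ends under all 8 settings. What moved each value beyond fewer or narrower peaks was not tested. With a zone of 25 kb the shares of the lists were 2.77% (H3K4me2) and 1.8% (H3K4me3), coverage relative to the rest 37.4% and 24.9%, marked genes 22.1% and 20.8% and the H3K4me2 overlap 63.9%. With folds at or above the list median, marked genes were 16.9% and 18.2%, overlap 43.3% and 50%, coverage at 15 to 35 kb 11.6% and 8.48%, median outermost gene 28135.5 and 28604 bp, the H3K4me3 share of its list 6.19% and its coverage of the outermost 15 kb 1.13% of the rest. With peaks of 500 bp, marked genes were 13.8% and 32.7%, overlap 60% and 57.8%, and coverage at 15 to 35 kb 10.3% and 8.64%. With a score of at least 100, marked genes were 24.8% and 34.6%, the H3K4me3 overlap 63.4%, and 11 listed family members had an H3K4me2 start. With equal lists the overlaps were 62.6% and 76.6% and H3K4me3 genes 33.4%. Without the 3 shortest chromosomes (I, III and VI) the H3K4me3 share was 6.47%. Without the listed multicopy families H3K4me3 marked 46.2% of end genes. H3K4me2 marked 38.5% of genes when 1 bp sufficed and 19.4% by start codon.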
